A study of Drosophila melanogaster with 63 samples.

Results

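The lysosomal alpha-mannosidase genes of Drosophila melanogaster were followed across 12 groups of flies and larvae. The genes were selected by symbol: every measured gene named LMan with a roman numeral was taken, which gave 6 of the 9212 genes with a value. These were LManI (CG5322), LManII (CG6206), LManIII (CG9463), LManIV (CG9465), LManV (CG9466) and LManVI (CG9468), each measured by 1 clone. The family was singled out after its log2 ratios had been seen, so the values below are a description and carry no test. The name lysosomal comes from the annotation, and an RNA ratio cannot check where the enzyme works.

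Alpha-mannosidases of the lysosome remove mannose from the sugar chains of glycoproteins that are being broken down. They work in an acidic lumen beside proteases and other glycosidases, and in humans the loss of the corresponding enzyme causes the storage disease alpha-mannosidosis. Flies carry several related copies, of which LManII is the one whose enzyme has been characterised biochemically, and the other members are named by their similarity to it. In the RefSeq annotation all 6 genes lie on chromosome arm 2L, with LManIII, LManIV, LManV and LManVI side by side and with LManI and LManII side by side at another place on the arm. No other annotated gene lies inside either cluster.

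Total RNA came from OregonR wild-type animals kept at 25 C and was read on 63 spotted arrays, each with the treated and the control RNA in opposite dyes. In 38 arrays, adults that had been moved from standard food to buffer alone (starved) or to buffer with 20% sucrose (sugar) were set against adults of the same sex on yeast paste. The starved groups were females after 24 h (6 arrays) and 48 h (5 arrays) and males after 24 h (6 arrays). The sugar groups were females after 24 h (5 arrays) and 48 h (6 arrays) and males after 24 h (6 arrays) and 48 h (4 arrays). In 25 arrays, larvae of 52, 64, 76, 88 and 100 h after egg laying (6, 5, 6, 4 and 4 arrays), raised on apple juice plates with yeast, were set against larvae of 40 h. The labels give no age for the adults, name no dissected tissue and do not say whether starved and sugar-fed adults were compared with the same yeast-fed RNA. In such bulk RNA, fewer cells of a type and less RNA per cell cannot be told apart.

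All arrays of a group carried 1 merged value per clone, so each group was a single measurement with no spread between arrays. A technical yardstick came from the up to 645 genes with exactly 2 clones: the 95th percentile of the difference between their clones, called the clone spread here, was 0.36 to 0.78 on the log2 scale in the adult groups and 0.62 to 1.09 in the larval groups. Differences between animals do not enter it. The direction of the ratio is not stated in the sources used here and is taken as likely treated over control. The basis is Lsp2, a storage protein of the late larval fat body, which stood at 8.52 in larvae of 88 h. It covers the larval ratios, and the adult ratios were assumed to have the same direction.

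Adults kept from yeast had lower ratios of this family than yeast-fed adults, most of all LManVI, except in females starved for 48 h. In that group 3 of 6 members lay below 0 and no member was past the clone spread of 0.74. Of the 41 adult values of the 6 genes, 37 lay below 0, 12 were at least 2-fold lower than the control and 0 were at least 2-fold higher. Of all genes, between 4183 of 9210 (males at 48 h of sugar) and 4890 of 9210 (females at 48 h of sugar) lay below 0 in an adult group. LManVI was the lowest member in 6 of the 7 adult groups, and LManIII was the lowest in the remaining one, females starved for 48 h. In 23 of the 41 values the distance from 0 was larger than the clone spread of the group. The share of all genes past that spread was not counted.

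LManVI, at the right end of its cluster as the annotation orders it, had the widest range of the family. Its log2 ratio was -1.61 in females starved for 24 h, -0.45 in females starved for 48 h and -1.81 in males starved for 24 h. On sugar it was -2.27 and -2.47 in females at 24 and 48 h, and -2.18 and -3.43 in males. The ratio was thus below 0 in all 7 adult groups and past 2-fold in all but the females starved for 48 h, where it was inside the clone spread of 0.74. In males after 48 h of sugar the level was 10.8-fold lower than in yeast-fed males, which was place 5 from the lowest of the 9210 genes measured there. In the other groups LManVI ranked between place 9 and place 33 from the lowest of all genes, except in females starved for 48 h, where it took place 460.

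LManIII, at the left end of the same cluster, was the second lowest member in most adult groups. It was at -1.02, -0.54 and -0.75 in females starved for 24 h, females starved for 48 h and starved males. On sugar its values were -1.48 and -1.55 in females and -1.42 and -2.36 in males at 24 and 48 h. All 4 sugar groups were past 2-fold, whereas among the starved groups this held for females at 24 h, just inside the threshold.

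LManV, which lies between LManIV and LManVI, stayed near the control in starvation and stood lower on sugar. Its starved values were -0.10 and -0.22 in females and -0.28 in males, all inside the clone spread. On sugar it was at -0.71 and -0.99 in females and -0.97 and -2.86 in males at 24 and 48 h. The value in males after 48 h, 7.27-fold lower than the control, had place 13 from the lowest of 9210 genes and lay apart from all of its other values. The next lowest, in females at 48 h of sugar, was 1.87 higher on the log2 scale, more than the clone spread of 0.86 for that pair of groups.

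LManIV, the neighbour of LManIII, had the narrowest adult range of the cluster. It was at -0.63, 0.05 and -0.12 in females starved for 24 and 48 h and in starved males, and at -0.58, -0.42, -0.24 and -0.35 in females and then males on sugar. None of these reached 2-fold, and only the values of females at 24 h, starved or on sugar, exceeded the clone spread. The members of 1 cluster therefore differed widely in the same RNA: in males after 48 h of sugar LManIV was at -0.35 beside LManIII at -2.36, LManV at -2.86 and LManVI at -3.43.

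The LManI and LManII pair had adult medians of -0.25 and -0.67, beside -0.35 for LManIV, -0.71 for LManV, -1.42 for LManIII and -2.18 for LManVI. LManII was at -0.49, 0.07 and -0.71 in females starved for 24 and 48 h and in starved males, and at -0.67, -0.30, -0.80 and -0.97 in females and then males on sugar. LManI had no value in females starved for 24 h and was at 0.30 in females starved for 48 h and -0.19 in males starved for 24 h. On sugar LManI stood at -0.31 and 0.10 in females and at -0.36 and -0.99 in males, at 24 and 48 h. Neither gene reached 2-fold in the deposited values of any group, but in males after 48 h of sugar both stopped just short of it, at distances from the control of 1.99-fold for LManI and 1.96-fold for LManII. With each group centred on its median over all clones, LManI was at -1.01 there, past 2-fold.

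**Figure D1:**
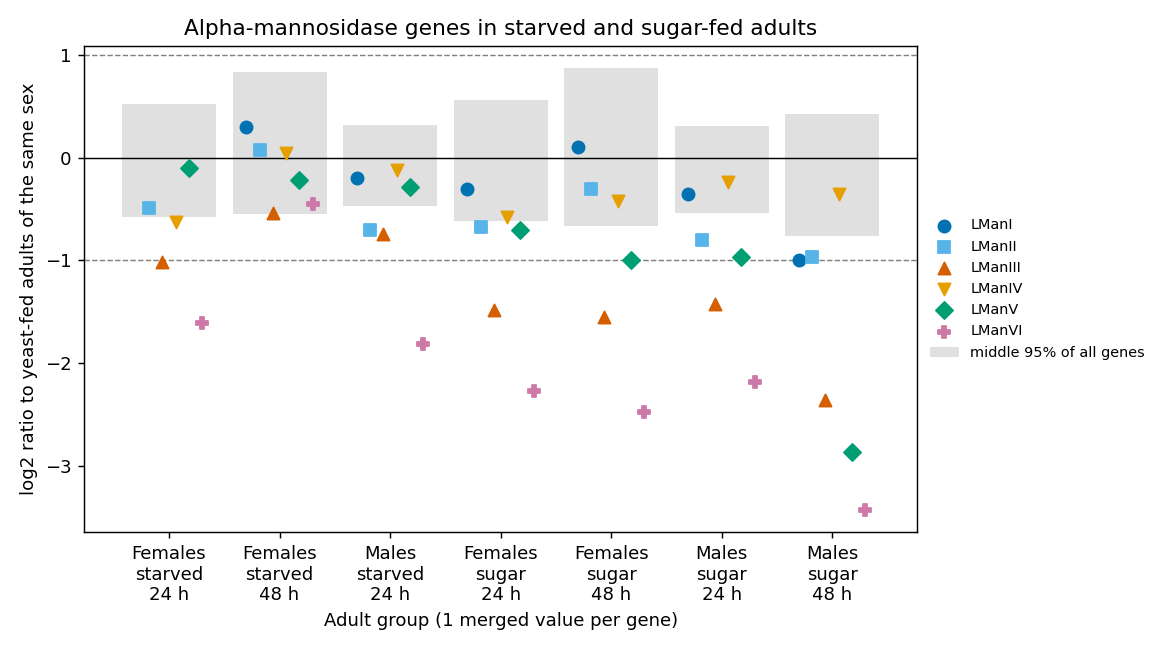
Log2 ratio to yeast-fed adults of the same sex (vertical axis) for the 6 genes in the 7 adult groups, 1 merged value per gene and group; LManI has no value in females starved for 24 h. Grey bars span the middle 95% of all genes, dashed lines mark 2-fold, and LManVI is the lowest point in all groups but females starved for 48 h, reaching -3.43 in males after 48 h of sugar.

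Counted by group, the members at least 2-fold lower than the control were 2 of 5 in females starved for 24 h, where 0.893% of all genes were. They were 0 of 6 in females starved for 48 h, against 0.727% of genes, and 1 of 6 in starved males, against 0.566%. On sugar they were 2 of 6 in females at 24 h (1.12% of genes), 2 of 6 in females at 48 h (1.26%), 2 of 6 in males at 24 h (1.13%) and 3 of 6 in males at 48 h (1.83%), which became 4 of 6 after the centring. The family median was -0.63, -0.08 and -0.49 in the starved groups and -0.69, -0.71, -0.88 and -1.68 on sugar in the same order, while the median of all genes was between -0.02 and 0.02 in these groups. Values just outside the 2-fold threshold were those of LManV in females at 48 h and males at 24 h of sugar and those of LManI and LManII in males at 48 h of sugar.

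Set against each other, starvation and sugar left the family at different distances from yeast, with the starved value the higher one. In females at 48 h the starved ratio exceeded the sugar ratio for all 6 members, with a median difference of 0.62. LManVI differed by 2.03, or 4.08-fold, between -0.45 and -2.47, which was place 3 from the highest of 9209 genes. LManIII differed by 1.01 and LManV by 0.78, both past the clone spread of 0.57, and LManI, LManII and LManIV by 0.19, 0.38 and 0.47, inside it. Thus 2 of 6 members were at least 2-fold higher, against 0.793% of all genes.

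At 24 h the same contrast was smaller in both sexes. In females LManVI was higher in starvation by 0.65, LManV by 0.60 and LManIII by 0.46, beyond the clone spread of 0.43, and LManII and LManIV differed by 0.18 and -0.05. In males LManV and LManIII were higher by 0.69 and 0.67, beyond a clone spread of 0.42, while LManVI differed by 0.37 and the others by 0.10 to 0.16. No member was 2-fold apart in either sex, as were 0.12% of genes in females and 0.566% in males. LManIII and LManV were thus past the clone spread in all 3 contrasts of starvation with sugar, and LManVI in the 2 of females.

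Between 24 and 48 h the values differed in different directions on the 3 courses. In starved females LManVI stood 1.17 higher at 48 h than at 24 h, past the clone spread of 0.77. LManII, LManIII and LManIV differed by 0.56, 0.48 and 0.68 and LManV by -0.12, all inside that spread. In females on sugar the 6 differences lay between -0.29 and 0.41, and none was past the clone spread of 0.66. In males on sugar all 6 genes were lower at 48 h, LManV by -1.90, LManVI by -1.25, LManIII by -0.94 and LManI by -0.64, these 4 beyond the clone spread of 0.50, and LManII and LManIV by -0.17 and -0.11.

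The difference of LManV in males was the third lowest of 9203 genes. At least 2-fold differences over the second day were seen for 1 of 5 members in starved females (higher, 0.632% of genes), for none of 6 in females on sugar (0.685% of genes in either direction) and for 2 of 6 in males on sugar (lower, 0.337% of genes). The course in starved females and the course in sugar-fed males thus ran in opposite directions for LManVI. The difference between these courses was not tested. By the lot field of the labels, the females starved for 24 h and for 48 h share no array lot, so that time and lot cannot be told apart there. The males on sugar share 1 lot, with 2 of 4 arrays at 48 h and 2 of 6 at 24 h in it, and the merged values allow no comparison within a lot.

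Females and males, each against yeast-fed adults of their own sex, differed little at 24 h. Subtracting males from females, starvation gave 0.22 for LManII, -0.27 for LManIII, -0.51 for LManIV, 0.18 for LManV and 0.20 for LManVI, and on sugar the 6 differences lay between -0.34 and 0.26. All were inside the clone spreads of 0.58 and 0.50. No member was 2-fold apart, against 0.981% of genes in starvation and 0.967% on sugar.

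After 48 h of sugar the female ratio was the higher one for 5 of the 6 genes. The difference was 1.87 for LManV, 1.10 for LManI and 0.96 for LManVI, beyond the clone spread of 0.86, and 0.81 for LManIII, 0.66 for LManII and -0.07 for LManIV, inside it. LManV and LManI were at least 2-fold higher in females, 2 of 6 members against 2.57% of genes. LManV had place 17 from the highest of the 9208 genes compared.

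**Figure D2:**
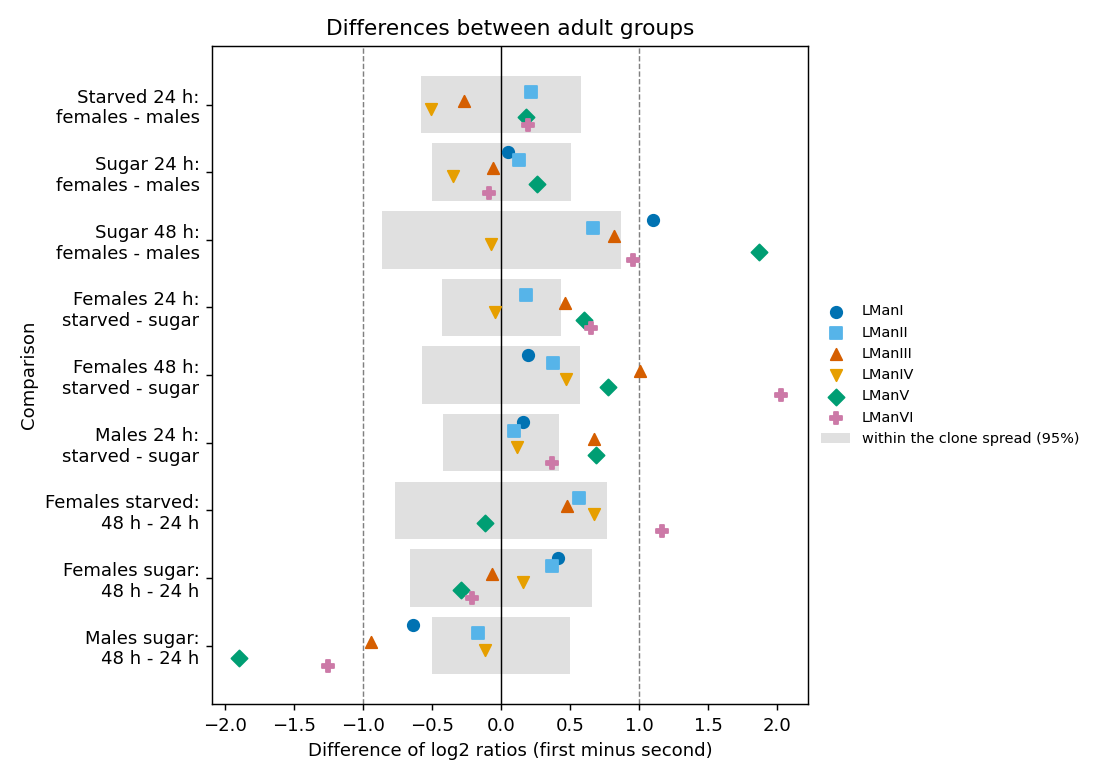
Differences of log2 ratios between adult groups (horizontal axis, first group minus second) for the 6 genes in 9 comparisons; LManI has no value where females starved for 24 h enter. Grey bars show the clone spread of each comparison and dashed lines 2-fold: LManVI stands out at 2.03 in starved against sugar-fed females at 48 h, and LManV at 1.87 between the sexes and -1.90 between 48 and 24 h in males on sugar.

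In larvae the family stood above the 40 h control for most of larval life and came back towards it at 100 h. Of the 30 larval values 28 lay above 0, 9 were at least 2-fold higher and 0 were at least 2-fold lower. Of all genes, between 4081 of 9212 (52 h) and 4884 of 9212 (76 h) lay above 0 at a larval age. All 6 genes were higher at 88 h than at 52 h and lower at 100 h than at 88 h, a course that 26.6% of the 9197 genes with all larval values had. In 12 of the 30 values the distance from the control was larger than the clone spread of that age, and the share of all genes past it was not counted.

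LManIII and LManVI, the ends of the cluster, were the highest members in larvae. LManIII was at 0.55, 1.45, 1.93, 1.94 and 0.36 from 52 to 100 h. LManVI was at 1.14, 1.34, 1.44, 1.74 and 0.89. LManVI was thus already past 2-fold at 52 h, when it had place 27 from the highest of 9212 genes, and LManIII took the top place of the family from 64 to 88 h, with a largest level 3.84-fold above the control.

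LManV and LManIV reached lower levels with the same return at the end. LManV was at 0.22, 0.87, 0.93, 1.33 and 0.19, and LManIV at 0.20, 0.75, 1.08, 0.81 and -0.01. LManIV had its highest value at 76 h and the other 5 genes had theirs at 88 h. LManI was at 0.28, 0.62, 0.51, 0.70 and 0.28, and LManII at -0.05, 0.10, 0.13, 0.37 and 0.20, so that none of the values of this pair was past 2-fold or past the clone spread.

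**Figure D3:**
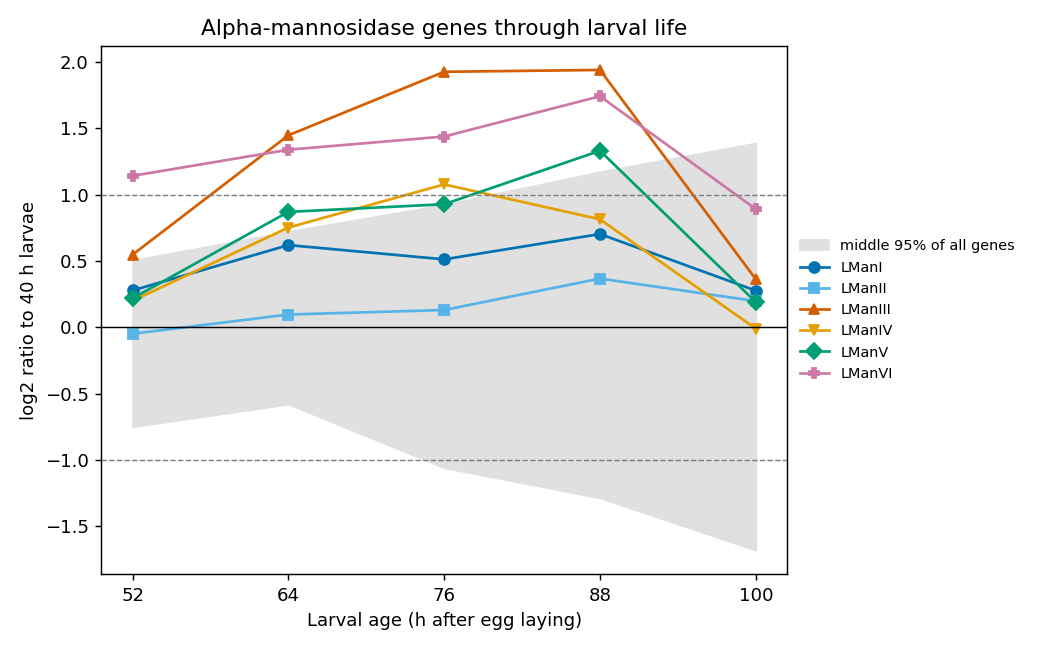
Log2 ratio to larvae of 40 h (vertical axis) against larval age in hours after egg laying for the 6 genes, 1 merged value per gene and age. The grey band spans the middle 95% of all genes and dashed lines mark 2-fold: LManIII reaches 1.94 and LManVI 1.74 at 88 h, and all 6 genes are lower at 100 h.

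Members at least 2-fold above the 40 h control were 1 of 6 at 52 h, where 0.478% of all genes were, 2 of 6 at 64 h (0.999%), 3 of 6 at 76 h (2.07%), 3 of 6 at 88 h (3.22%) and 0 of 6 at 100 h (4.97%). While the share of all genes this far above the control was largest at 100 h, the family median went from 1.07 at 88 h to 0.24 at 100 h. Its earlier values were 0.25, 0.81 and 1.00. Of the 297 genes at least 2-fold higher at 88 h, 62 were under that threshold at 100 h, and LManIII, LManV and LManVI were 3 of these.

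Step by step, the difference from 52 to 64 h was positive for all 6 genes, with LManIII at 0.90, past the clone spread of 0.68, and the others between 0.15 and 0.65. From 64 to 76 h the 6 differences lay between -0.11 and 0.48, and from 76 to 88 h between -0.26 and 0.40, inside the clone spreads of 0.66 and 0.63. From 88 to 100 h LManIII differed by -1.58, LManV by -1.14, LManVI by -0.85, LManIV by -0.82, LManI by -0.43 and LManII by -0.17, and LManIII and LManV were past the clone spread of 0.85. No member was 2-fold apart in the first 3 steps, in which 2.1%, 2.74% and 0.858% of genes were 2-fold apart, and 2 of 6 were at least 2-fold lower over the last, against 2.11% of genes. Of the arrays at 100 h, 3 of 4 come from a lot that no other group has, and the part of the lot in this last step was not tested.

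The groups were also ordered by level for each gene, which sets adult ratios to yeast-fed adults beside larval ratios to 40 h larvae. Of the steps between neighbouring groups, 3 of 11 were past the clone spread for LManVI, 1 of 11 for LManIII, 1 of 11 for LManV, 1 of 10 for LManI and 0 of 11 for both LManII and LManIV. Such steps were not counted for all genes, so these counts have no share of all genes beside them. For LManVI the steps past the clone spread lay between males and females at 48 h of sugar, between females starved for 24 and 48 h, and between females starved for 48 h and larvae of 100 h. The last of these joins ratios to different controls. Males at 48 h of sugar were the lowest group of LManI, LManII, LManIII, LManV and LManVI, and females starved for 24 h that of LManIV.

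The members were alike in their patterns to different degrees. Over all groups Pearson's r between 2 members was between 0.73 and 0.97 in the 15 pairs, with a median of 0.89, as a description over 12 groups (11 for pairs with LManI). The larval groups share the 40 h control, and whether adult groups of 1 sex share yeast-fed RNA is not stated in the labels. Many other genes had an r as high: from 12 to 581 genes outside the family were closer to the first gene of a pair than its partner was. It mixes adults with larvae, and LManIV and LManV, with an r of 0.73 over 12 groups, had one of 0.10 over the 7 adult groups. LManIII and LManVI, the outermost genes of their cluster, were the closest pair, with 0.97 over all groups and 0.94 over the adult groups, and 12 genes outside the family were still closer to LManIII. LManIII and LManIV, which are direct neighbours, had 0.92 and 0.45.

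Among the 9153 other genes with all 12 values, LManVI was most like Jon99Ci, a serine protease gene of the midgut, with an r of 0.98 over all groups and 0.97 over the adult groups. Jon99Ci was at -1.30, -0.73 and -1.63 in the starved groups, -1.99, -2.29, -1.72 and -3.18 on sugar, and 0.63, 1.23, 1.33, 0.70 and 0.23 in larvae. The next were CG9331 and CG7322, both with an r of 0.98. LManIII was most like CG5793 (0.99), Eno, the glycolytic enzyme enolase (0.99), and PH4alphaSG2 (0.98), but Eno had a much smaller range, with -0.66 in males at 48 h of sugar and 0.87 in larvae of 88 h.

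LManI was closest to the maltase gene Mal-A7 (0.98 over 11 groups), CG5254 (0.98) and CG31674 (0.97). LManII was closest to Mur18B (0.96), CG5254 (0.96) and CG9485, the glycogen debranching enzyme (0.96). LManV was closest to GstE8, a glutathione transferase gene (0.97), Pgm1, phosphoglucomutase (0.96), and CG14630 (0.94), and LManIV to Catsup (0.97), CG14818 (0.95) and Hgsnat (0.94). Over the adult groups alone the r of these 18 pairs was 0.71 or higher, and lowest for LManIV with CG14818. These 18 were picked as the closest genes by Pearson's r pooled over adults and larvae, so a high r follows from the search. The adult groups took part in it, so the r over them is no separate check. With the r of the adult groups 1 of the 18 was again among the 3 closest, and with that of the larval groups 1. No gene was among the 3 closest of more than 1 member except CG5254.

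The genes next to the clusters on the chromosome had other patterns. SoxN, a transcription factor gene and the nearest measured gene to the right of LManVI, lay between -0.07 and 0.34 in adults and between -0.40 and -0.04 in larvae. CG12438, to the left of LManIII, lay between -0.18 and 0.21 in adults and was at -1.18, -0.02, -1.33, -1.18 and -1.23 in larvae. On the sides of the other cluster, loh lay between 0.02 and 0.37 in adults and between -0.51 and -0.06 in larvae, and RluA-1 between -0.02 and 0.60 and between -0.15 and 0.47. None of the 4 was 2-fold lower in any adult group or 2-fold higher in any larval group. Of all genes, 0.566% to 1.83% were 2-fold lower in an adult group and 0.478% to 4.97% higher in a larval group. None of 4 is near that share.

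Most genes of the list of other lysosomal glycosidases were near the control where the mannosidases were not. The list is named by its larger part: it also holds the sulfatase genes Sgsh and Ids, and ENGase, an endoglycosidase usually placed in the cytosol. Of 12 measured genes of that list, 1 was at least 2-fold lower in males at 48 h of sugar, CG7997, an alpha-galactosidase gene, at -1.23, against 3 of the 6 mannosidases and 1.83% of all genes. The list median there was -0.23, and over the other adult groups it lay between -0.09 and 0.07. beta-Man, which removes the last, beta-linked mannose of the same sugar chains, was at -0.52 in those males and between -0.19 and 0.04 in the other adults. In larvae beta-Man lay between -0.04 and 0.44, while CG7997 was at 0.34, 0.84, 1.15, 1.26 and 1.84, and so had no return at 100 h.

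The mannosidases and glucosidases that trim new sugar chains in the endoplasmic reticulum and Golgi were also close to the control. None of the 12 genes measured was 2-fold away in either direction in any of the 12 groups, and the list median lay between -0.07 and 0.09. Of all genes, 0.0218% to 1.83% were 2-fold away in a given direction in an adult group. In a larval group 0.185% to 6.77% were, so a count of 0 of 12 is near the share of all genes. alpha-Man-Ia, a trimming mannosidase, was highest in larvae of 100 h, at 0.76, and lay between -0.04 and 0.10 in adults. GCS2alpha, the catalytic subunit of glucosidase II, was at -0.76 in females starved for 24 h, and Mgat2, which adds N-acetylglucosamine to the trimmed chain, was at 0.61 in females after 48 h of sugar.

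Lysosomal proteases and membrane proteins, listed with the lipase gene Lip4 and the gene of the sterol-binding protein Npc2a, had a different larval course by their list median. None of these 12 genes was 2-fold away from the control in adults, with list medians between -0.07 and 0.11. Of all genes, 0.0218% to 1.83% were so in a given direction in an adult group. In larvae 6 of 12 were at least 2-fold higher at 100 h, with a list median of 1.04, where 0 of the 6 mannosidases and 4.97% of all genes were. cathD, an aspartic protease, was at 0.29, 0.30, 0.78, 1.77 and 3.28 from 52 to 100 h. CtsB, a cysteine protease, was at 0.29, 0.57, 0.95, 1.65 and 2.61. These are the 2 highest genes of the list in larvae, and both had their highest value at 100 h, the age at which all 6 mannosidases were lower than at 88 h. CtsK1, Lip4 and Cln3 of the list were also lower at 100 h than at 88 h. Cln3 and Trpml, the 2 lowest of the list in larvae, had larval means of -0.17 and 0.08. Of 26 genes named as subunits of the V-ATPase, the pump that acidifies the lysosome, 0 were 2-fold lower in males at 48 h of sugar. Of all genes 1.83% were, and the list median there was -0.22. Over all adult groups 3 values of that list were 2-fold lower, all of Vha68-3, against 0.566% to 1.83% of all genes in an adult group.

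Of the lists, enzymes of carbohydrate digestion in the gut, listed together with gut lysozymes, stood closest to the family by Pearson's r over adults and larvae pooled. Their median over 16 genes was -0.63, 0.10 and -0.64 in the starved groups and -0.82, -0.44, -1.06 and -1.51 on sugar. In males at 48 h of sugar, where 1.83% of all genes were at least 2-fold lower, so were 11 of 16. Among them were Amy-p, an amylase gene, at -2.51 and tobi, an alpha-glucosidase gene under insulin control, at -1.93. Those not 2-fold lower were Gal at -0.51 and the lysozyme genes LysX, LysE, LysP and LysS at -0.36, -0.34, -0.06 and -0.28. LysP was at 1.01 in females starved for 48 h, the only adult value of the list at least 2-fold higher. Pearson's r of the list median with each member over the groups was 0.96 for LManI, 0.97 for LManII, 0.94 for LManIII, 0.82 for LManIV, 0.90 for LManV and 0.96 for LManVI. The same r was 0.73 to 0.86 for the midgut enterocyte markers and 0.40 to 0.85 for the other lysosomal glycosidases, whose medians had a much smaller range. Each r pools adults with larvae, which have different controls, and no r within adults or larvae alone is given for the lists. The list holds Gal, which is also in the list of other lysosomal glycosidases, and LysX and LysE, whose related sequences make them uncertain as separate genes.

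In larvae 13 of the 16 genes were lower at 100 h than at 88 h, as were all 6 mannosidases, and 3 were higher. Amy-p, one of these 3, was at 0.77, 1.49, 2.15, 2.93 and 3.71, with its highest value at 100 h, and Mal-A1, a maltase gene of the gut, at 0.26, 0.03, 0.36, 0.30 and -0.13. The list median was 0.26, 0.44, 0.75, 0.80 and 0.42 from 52 to 100 h, and at 100 h, where 4.97% of all genes were at least 2-fold higher, so were 7 of these 16, of which 4 were lysozyme genes.

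**Figure D4:**
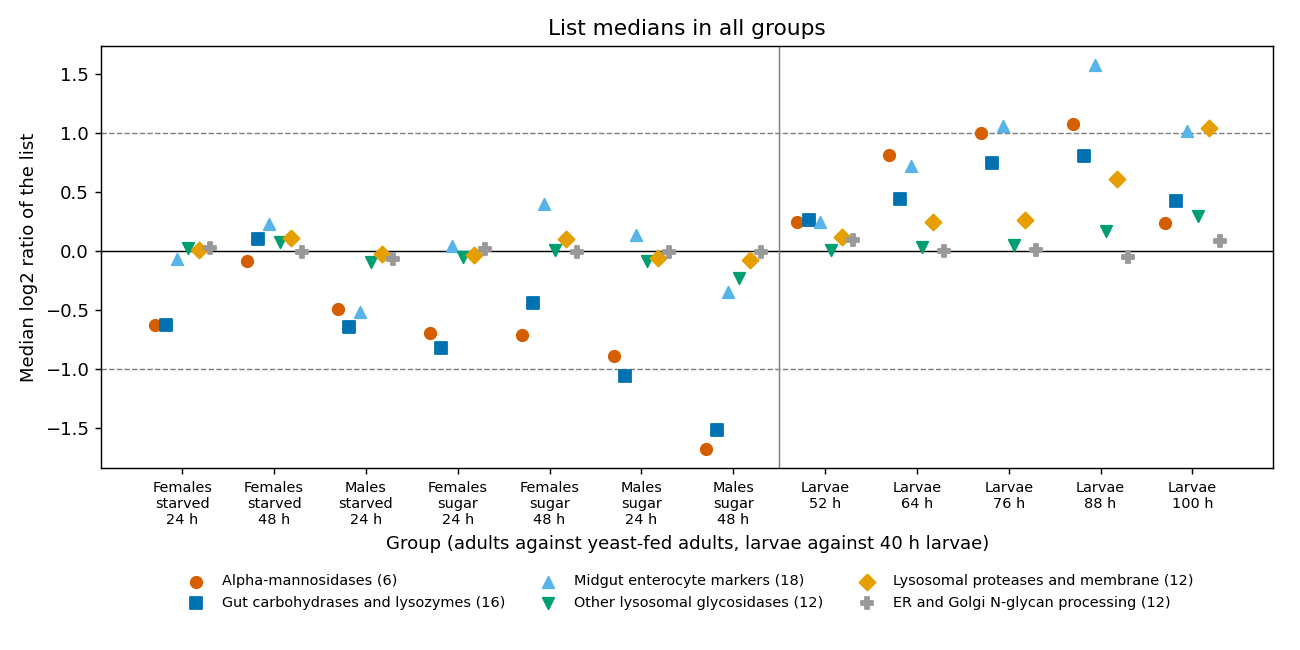
Median log2 ratio (vertical axis) of the 6 mannosidase genes and of 5 gene lists in all 12 groups, adults against yeast-fed adults and larvae against 40 h larvae; the number of genes is given in the legend and dashed lines mark 2-fold. The mannosidases (-1.68) and the gut carbohydrases (-1.51) are both low in males after 48 h of sugar, and the lysosomal proteases and membrane proteins (1.04) are the highest list in larvae of 100 h.

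Markers of midgut enterocytes shared the direction of the family in part. Of 18 measured markers, 5, 2 and 4 were at least 2-fold lower in the starved groups, against 0.893%, 0.727% and 0.566% of all genes. On sugar 5, 6, 6 and 7 were, against 1.12%, 1.26%, 1.13% and 1.83%. The list medians of the adult groups lay between -0.51 and 0.40. In the same order 2, 4, 0, 1, 5, 0 and 0 were at least 2-fold higher, against 0.283%, 1.24%, 0.0218%, 0.391%, 1.70%, 0.109% and 0.206% of all genes. Jon25Bi, a midgut serine protease gene, was the lowest, at -2.23, -1.46 and -2.61 in starvation and -2.29, -2.41, -1.99 and -3.88 on sugar. epsilonTry, a trypsin gene of the midgut, lay the other way in females, at 1.17 and 1.38 in starvation and 1.09 and 1.33 on sugar, while GATAe and nub, transcription factor genes of the midgut, stayed between -0.24 and 0.51. In larvae the marker median was 0.24, 0.72, 1.06, 1.57 and 1.02. The part of midgut tissue in the mannosidase ratios was not tested.

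Ovary markers were at least 2-fold lower for 8 of 9 genes in each of the 4 female groups, where 0.727% to 1.26% of all genes were. In each of the 3 male groups 0 of 9 were, near the share of all genes there, 0.566% to 1.83%. Fat body markers, 6 genes that include the yolk protein genes, had medians between -2.06 and -1.32 in the female groups and between -0.23 and -0.01 in the male groups. Lsp2, one of them, was nonetheless at -5.46, -4.59 and -6.01 in males starved for 24 h and on sugar for 24 and 48 h. Markers of blood cells, with 4 genes, and of Malpighian tubules, with 3, had no member 2-fold lower in any adult group. That is near the share of all genes, 0.566% to 1.83% in an adult group. The part of these tissues in the result was not tested. The 4 genes of the larger mannosidase cluster are related in sequence, and whether a clone of one also binds RNA of another was not tested.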

How the data were processed

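The authors' deposited values are log2 ratios of the 2 dye channels. Per the labels, the spot copies and repeat hybridisations entered 1 joint normalisation, so a clone has 1 value per group. All arrays of a group, and both copies of a clone, held identical values in the files. The method of normalisation, any background correction and the direction of the ratio were not stated. Base 2 was taken because raising it to the size of a value returned, to within 0.05 of the sixth decimal, a decimal number for 100% of 144950 values with a size under 6, whereas base e did so for 9.98%.

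Of 12094 clones, a gene identifier named 9814, an accession 87 and the platform annotation's symbol alone 247, with symbols updated to the RefSeq annotation of Release 6 plus ISO1 MT. A further 1945 had no symbol and 1 had several, and these stayed unnamed. Genes with several clones took their median. The treated RNA was in channel 1 on 31 arrays and in channel 2 on 32, with both orientations in every group, and 2 of the arrays of females starved for 48 h carry the same array number. No low values were filtered, and the brightness of the spots was not used. With 1 merged value per group no model was fitted and no p-value is given, and a count takes genes at least 2-fold from the control. The counting and likeness steps were checked on made-up data with known answers. The members, lists and comparisons were chosen with earlier results of these data known. Named genes are the members, the 3 genes most like each, the nearest measured neighbours, and Jon25Bi, Mal-A1 and Lsp2 as references. Others were picked from the 2 highest and 2 lowest genes of each list by its mean over the adult or the larval groups. Not all genes at these ends are named, so both ends of a list are not always shown. Some further genes are named to say what a list holds. Protein and promoter sequences were not analysed here. Python 3.11.15, pandas 2.3.3 and numpy 2.4.6 were used. Alternatives were other fold thresholds, centring, means over clones, annotation symbols and other measures of likeness.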

Additional observations from a re-analysis of the deposited data

Results flagged for a closer look

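LManI had log2 ratios of opposite sign in the sexes after 48 h of sugar. It was at 0.10 in females, well inside the clone spread of 0.78 of that group and so on no clear side of the control, and at -0.99 in males, a difference of 1.10 that is larger than the clone spread of 0.86 for that comparison. The difference between the sexes was not tested, since each group was 1 merged measurement, and the gene rests on 1 clone.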

How the results depend on the processing

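No paired analysis was possible because all arrays of a group carry 1 merged value, and leaving out single arrays could not be run for the same reason. Each member has 1 clone, so single clones gave no further values. Centring each group on its median, taking means over clones and using the annotation's own symbols moved none of the 71 member values by more than 0.03 on the log2 scale, but centring took LManI past 2-fold in males at 48 h of sugar, with 4 members lower there in place of 3. At 1.5-fold, lower members numbered 3 in starved males, 4 in females at 24 h of sugar and 4 and 5 in males at 24 and 48 h, and higher members 5, 5 and 1 in larvae of 64, 88 and 100 h. At 3-fold, 1 member was lower in females starved for 24 h, in females at 24 h and 48 h of sugar and in males at 24 h, and 0, 0 and 1 were higher in larvae of 52, 64 and 76 h. Of the 18 pairs of a member with its closest genes, 8 were shared with Spearman's rho, 1 with the adult groups alone and 1 with the larval groups alone. Lower values over the adult groups at 2-, 1.5- and 3-fold numbered 1, 2 and 0 for other lysosomal glycosidases, 0, 2 and 0 for glycan processing, 0, 4 and 0 for lysosomal proteases and membrane, 33, 61 and 10 for gut carbohydrases, and 0 for the V-ATPase at 3-fold. Higher values over the larval groups numbered 3, 5 and 1, then 0, 1 and 0, then 10, 22 and 4, then 16, 31 and 5 in that order of lists, and 1, 4 and 0 for the V-ATPase.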
